A study of Mus musculus with 6 samples.

Results

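The genes described here code for the Wnt ligands, their Frizzled and Lrp receptors, the secreted proteins that modulate them, and 2 transcripts that respond to the pathway. Members were taken by gene symbol: every array row annotated to exactly 1 gene whose symbol was a numbered Wnt, Fzd, Sfrp, Dkk or Rspo, or was Frzb, Sost, Wif1, Lrp5, Lrp6, Axin2 or Lef1. This gave 46 of the 14860 genes measured: 19 Wnt ligands, 11 receptors (9 Frizzleds, Lrp5 and Lrp6), 14 secreted modulators, and Axin2 and Lef1. Dkk1 and Fzd9 had no row of their own by this rule. The conditional knockout hearts (Hic2 cKO) were of genotype Mesp1 Cre/+; Hic2 FL/FL, and the control hearts were Hic2 FL/FL. Both groups therefore carried the floxed Hic2 alleles, and they differed in the Mesp1-Cre allele, which drives recombination in early mesoderm, the source of most but not all cells of the heart. No group carried Cre without the floxed alleles, so Hic2 removal and the Cre allele cannot be told apart. Each group had 3 biological replicates from E13.5 mouse embryos, each a pool of 4 to 6 hearts on 1 array, and the ages did not differ between groups. Hic2 codes for a zinc finger transcription factor. The comparison addresses how the transcripts of this pathway differ between these genotypes in the developing heart.

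Wnt proteins are secreted lipid-modified ligands that bind Frizzled receptors together with the co-receptors Lrp5 or Lrp6. In the canonical branch this stabilises beta-catenin, which enters the nucleus and acts with Tcf and Lef factors on target genes such as Axin2, itself a negative regulator of the pathway. Secreted Frizzled-related proteins and Wif1 bind Wnts, Dkk proteins and sclerostin bind the Lrp co-receptors, and R-spondins raise the amount of receptor at the cell surface. In the heart, canonical signals act on progenitors, valve cushions and epicardium, and non-canonical ligands such as Wnt5a and Wnt11 act in the outflow tract.

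The values were log2 signals from 6 arrays, whose medians over all rows lay between 7.41 and 7.48. The arrays correlated at 0.993 to 0.997 across genes. Signals of different probe sets are not comparable, so each gene is compared only between groups. The 6 measured cardiomyocyte markers had mean signals between 10.21 and 13.86, above the array medians. Hic2 had signals of 8.07, 7.96 and 8.04 in Hic2 cKO hearts, against 8.10, 8.26 and 8.14 in control hearts. The difference was -0.14 ± 0.07 (SE), short of the threshold with a limma adjusted p of 0.314. By exact permutation of the arrays the two-sided p was 0.1, and no smaller value is possible with 3 against 3. The sources used here do not place the probes of this row relative to the deleted part, so it is no check of the genotype labels. Control replicate 3 stood apart in the Y-linked transcript Eif2s3y, at 4.36 against 8.51 to 9.64 on the other 5 arrays. Some results below are therefore also given without it. Control replicate 1 stood apart in the lung and foregut marker Epcam, at 7.57 against 6.32 to 6.68 on the other 5 arrays. It also did in Cdh1, at 7.34 against 6.63 to 6.81, but not in Foxa2, Sftpc or Shh. Of 11 lists of cell type markers, several held genes past the threshold between genotypes, and the cardiomyocyte list held 0. Of the 6 cardiomyocyte markers 5 were lower in Hic2 cKO hearts (0 past the threshold). The log2 of their summed signal was 15.48 to 15.56 in Hic2 cKO hearts and 15.57 to 15.61 in control hearts. Of 12 epicardial markers 10 were higher in Hic2 cKO hearts (3 past the threshold), and the log2 of their summed signal was 14.03 to 14.18 in Hic2 cKO hearts and 13.79 to 13.93 in control hearts. Of 8 erythroid markers 8 were lower (5 past the threshold), with summed log2 signals of 15.21 to 15.33 in Hic2 cKO hearts and 15.51 to 15.64 in control hearts. The erythroid differences were smallest for Klf1, at -0.05, and Hbb-y, at -0.11. Of 9 macrophage markers 9 were higher (2 past the threshold), with summed log2 signals of 11.86 to 11.97 in Hic2 cKO hearts and 11.46 to 11.62 in control hearts. Of 8 smooth muscle and pericyte markers 5 were lower (1 past the threshold, Kcnj8). Their summed log2 signals were 14.077 to 14.155 in Hic2 cKO hearts and 14.159 to 14.204 in control hearts. Of 8 skeletal muscle markers 5 were higher (1 past the threshold, Tnnt3). Their summed log2 signals were 12.45 to 12.59 in Hic2 cKO hearts and 12.16 to 12.33 in control hearts. Tnnt3 differed by 1.81, but the median of the list was 0.04. Myod1, Myog, Myf5 and Pax7 differed by -0.06, 0.04, -0.13 and -0.05. A summed signal is weighted to bright rows and can be moved by 1 gene. The lists for cushion and valve mesenchyme, lung and foregut, neural crest and neurons, liver, and endothelium held 0 genes past the threshold. Over all genes, 0.336% passed as higher and 0.222% as lower. The marker lists were chosen with earlier results of these data known, so these counts are a description only. No marker was listed at 0, and the part of these cell types in the results below was not tested. In whole hearts, fewer cells of a type and less RNA per cell cannot be told apart.

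Of the 46 members, 1 passed the threshold between genotypes: Sost, which was higher in Hic2 cKO hearts. That call was lost whenever 1 array was left out, and members that did not pass may still differ. The test was limma across all 14860 genes with a Benjamini-Hochberg adjusted p under 0.05, which called 0.559% of genes (0.336% higher and 0.222% lower). Without adjustment, 5 members had p under 0.05, namely Sost and Fzd4 with positive differences and Wnt2, Wnt5a and Sfrp1 with negative ones, against 17.5% of all genes (10.7% higher and 6.8% lower). In 8 of the 46 members the signals of the groups did not overlap, 2 with Hic2 cKO hearts above and 6 below, where 24.6% of all genes were so separated (14.2% above and 10.4% below). Positive and negative differences were mixed, at 21 and 25 of the 46, and the median difference was -0.0036 on the log2 scale, against 0.0050 for all genes. The intervals bound the size of a difference in signal that could have been missed. For dim rows, such as Sfrp4 at a mean of 5.42, they do not bound the difference in transcript. No detection call was used, and the array processing compresses differences of dim probe sets. For 43 of the 46 members the 95% confidence interval of the difference lay within a 1.5-fold change in either direction (13844 of the 14860 genes overall). The exceptions were Sost, Sfrp1 and Sfrp2. For 38 members the interval lay within a 1.3-fold change.

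**Figure D1:**
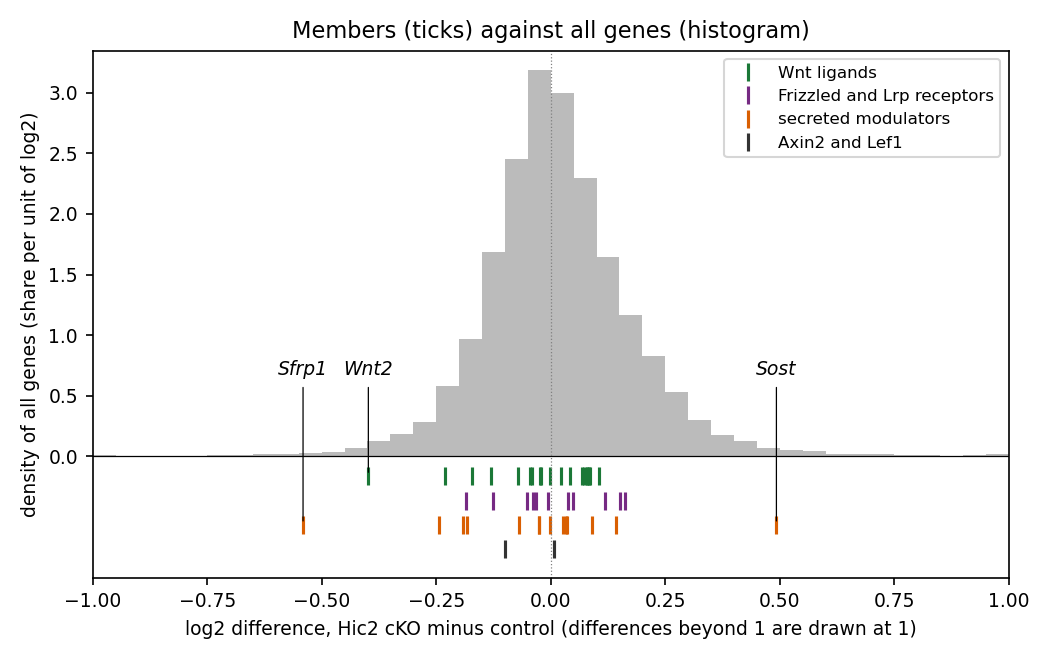
Each tick below the axis is 1 member's log2 difference, Hic2 cKO minus control, in a row for its class; the histogram shows the same quantity for all 14860 genes, as a density. Most ticks lie near 0, with Sost at 0.49 on the positive side and Sfrp1 at -0.54 and Wnt2 at -0.40 on the negative side.

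**Figure D2:**
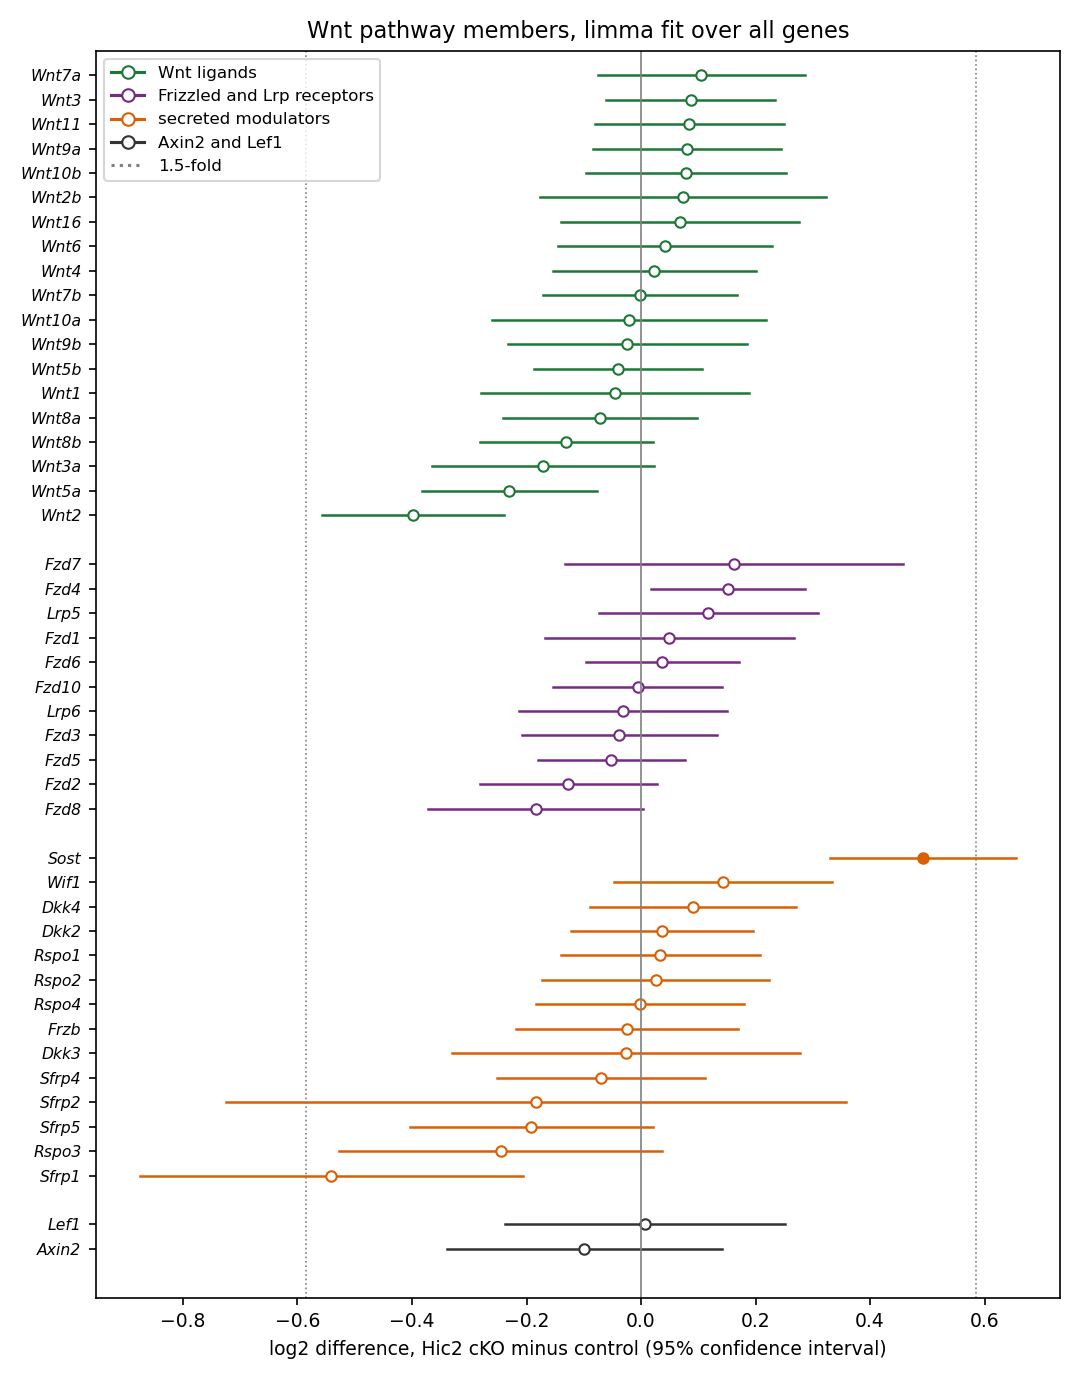
Points are the fitted log2 differences (Hic2 cKO minus control, x axis) of the 46 members and bars their 95% confidence intervals, grouped by class and ordered within it; the filled point passed the adjusted threshold, and dotted lines mark a 1.5-fold change. Sost is the filled point, and the intervals of Sost, Sfrp1 and Sfrp2 reach past a dotted line.

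Among the secreted inhibitors of the Lrp co-receptors, Sost was 1.41-fold higher in Hic2 cKO hearts. Sost codes for sclerostin, best known as the osteocyte protein that restrains bone formation by binding Lrp5 and Lrp6. Its row (identifier 6791525) had log2 signals of 8.59, 8.44 and 8.48 in Hic2 cKO hearts, against 7.95, 7.98 and 8.10 in control hearts. Every Hic2 cKO array lay above every control array, and the spread within each group (SD 0.08 in both) was small beside the gap. The mean of the row over all arrays, 8.26, was not above the median of the gene means, and no detection call was used. The difference was 0.49 ± 0.07 (SE; 95% confidence interval 0.33 to 0.65), with a limma adjusted p of 0.0424. The difference kept its direction and a size between 0.45 and 0.54 when each array was left out in turn. The adjusted p then lay between 0.0813 (without control replicate 3) and 0.148 (without control replicate 2), so the call was lost each time. These refits have fewer arrays, and over all genes they called 3 to 28 genes in place of 83. The call also ended with the array medians set equal (adjusted p = 0.0564), with the replicate number as a block (0.108) and with every row of the table tested (0.183).

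The 250 bases before the annotated start of Sost are shown because it is the 1 member called, beside those of Wnt2, which came next by p. They are from RefSeq (GRCm38.p6), chr11:101967016-101967265 for Sost and chr6:18030446-18030695 for Wnt2, both on the minus strand, with CG dinucleotides in capitals.
Sost: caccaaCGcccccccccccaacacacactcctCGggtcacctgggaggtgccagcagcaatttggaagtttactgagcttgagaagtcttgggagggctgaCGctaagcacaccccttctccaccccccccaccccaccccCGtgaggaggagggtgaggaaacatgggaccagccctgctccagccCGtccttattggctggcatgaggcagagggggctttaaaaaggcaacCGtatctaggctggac
Wnt2: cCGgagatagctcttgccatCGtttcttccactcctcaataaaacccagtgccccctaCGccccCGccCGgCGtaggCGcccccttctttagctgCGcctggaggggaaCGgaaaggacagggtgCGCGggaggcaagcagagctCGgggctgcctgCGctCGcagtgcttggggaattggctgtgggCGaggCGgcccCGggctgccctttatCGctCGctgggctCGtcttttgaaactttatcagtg
The Sost window held 6 CG dinucleotides, the median of all 32851 windows of the reference table, and the Wnt2 window held 20, more than 82.0% of windows hold. Neither window held, on either strand, the Tcf/Lef core ATCAAAG (in 3.21% of all windows) or the HIC1 consensus cores GGGCACC (3.88%) and GGGCAAC (2.36%). Among 36 windows of 30 members, ATCAAAG occurred in 2 (Wnt11 and Wnt5b), GGGCACC in 1 (Wnt5b) and GGGCAAC in 0.

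Of the 3 measured Dkk genes, secreted proteins whose best known member Dkk1 blocks Lrp6, 0 passed the test. Dkk3, a divergent family member, had signals of 10.79, 10.65 and 10.54 in Hic2 cKO hearts, against 10.61, 10.97 and 10.48 in control hearts. The groups overlapped fully, and the difference was -0.03 (95% confidence interval -0.33 to 0.28, limma adjusted p = 0.940). Dkk2 and Dkk4 differed by 0.04 and 0.09, with intervals inside a 1.3-fold change.

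All 5 measured genes of the Frizzled-related family, secreted decoys that bind Wnts through a Frizzled-like domain, had negative differences, with a median of -0.18, except that Frzb turned positive in 3 of the 6 refits without 1 array (up to 0.02) and Sfrp4 did so with array weights (0.04). Of the 5, 0 passed. At an unadjusted p under 0.05 there was 1, Sfrp1. Sfrp1 (identifier 6974663) had signals of 12.15, 11.76 and 11.90 in Hic2 cKO hearts, against 12.24, 12.73 and 12.45 in control hearts. The groups did not overlap, but Hic2 cKO replicate 1 came within 0.09 of control replicate 1. The difference, -0.54 ± 0.14 (SE; 95% confidence interval -0.88 to -0.21), was the largest in size among the members, and the limma adjusted p was 0.145. It ranged from -0.66 to -0.41 with 1 array left out, and passed with array weights (0.0470) and with the brighter genes alone (0.0447).

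Sfrp5 had signals of 8.28, 8.20 and 8.32 in Hic2 cKO hearts, against 8.39, 8.64 and 8.33 in control hearts. These groups were separate by a margin of 0.01, and the difference was -0.19 ± 0.09 (SE, limma adjusted p = 0.327). It was -0.10 without control replicate 2 and -0.25 without control replicate 3. Sfrp2 had signals of 11.67, 11.36 and 11.04 in Hic2 cKO hearts, against 11.89, 11.67 and 11.05 in control hearts. Replicate 3 was the lowest array in both genotypes, the SDs were 0.31 and 0.43, and the difference of -0.18 had the widest interval of the 46 members, from -0.72 to 0.36. It was -0.43 without control replicate 3 (limma adjusted p = 0.341), -0.34 without Hic2 cKO replicate 1, -0.02 without Hic2 cKO replicate 3 and -0.0084 without control replicate 1. Sfrp4 and Frzb differed by -0.07 and -0.02 with overlapping groups.

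The R-spondins, which amplify Wnt signals by keeping Frizzleds at the cell surface, had 0 of 4 members past the threshold. Rspo3, needed in mouse for development of the outflow tract, had signals of 8.69, 8.52 and 8.69 in Hic2 cKO hearts, against 9.11, 8.88 and 8.64 in control hearts. Control replicate 3 lay among the Hic2 cKO arrays, and the difference was -0.24 ± 0.12 (SE, limma adjusted p = 0.343). Without control replicate 3 it was -0.36 (adjusted p = 0.227), and without control replicate 1 it was -0.13. Rspo1, Rspo2 and Rspo4 differed by between -0.0016 and 0.03. The Wnt-binding inhibitor Wif1 was at 7.59, 7.80 and 7.64 in Hic2 cKO hearts, against 7.47, 7.48 and 7.65 in control hearts, a difference of 0.14 ± 0.08 (SE, limma adjusted p = 0.403). Over the 14 modulators as a class, 6 differences were positive and 8 negative, with a median of -0.01.

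**Figure D3:**
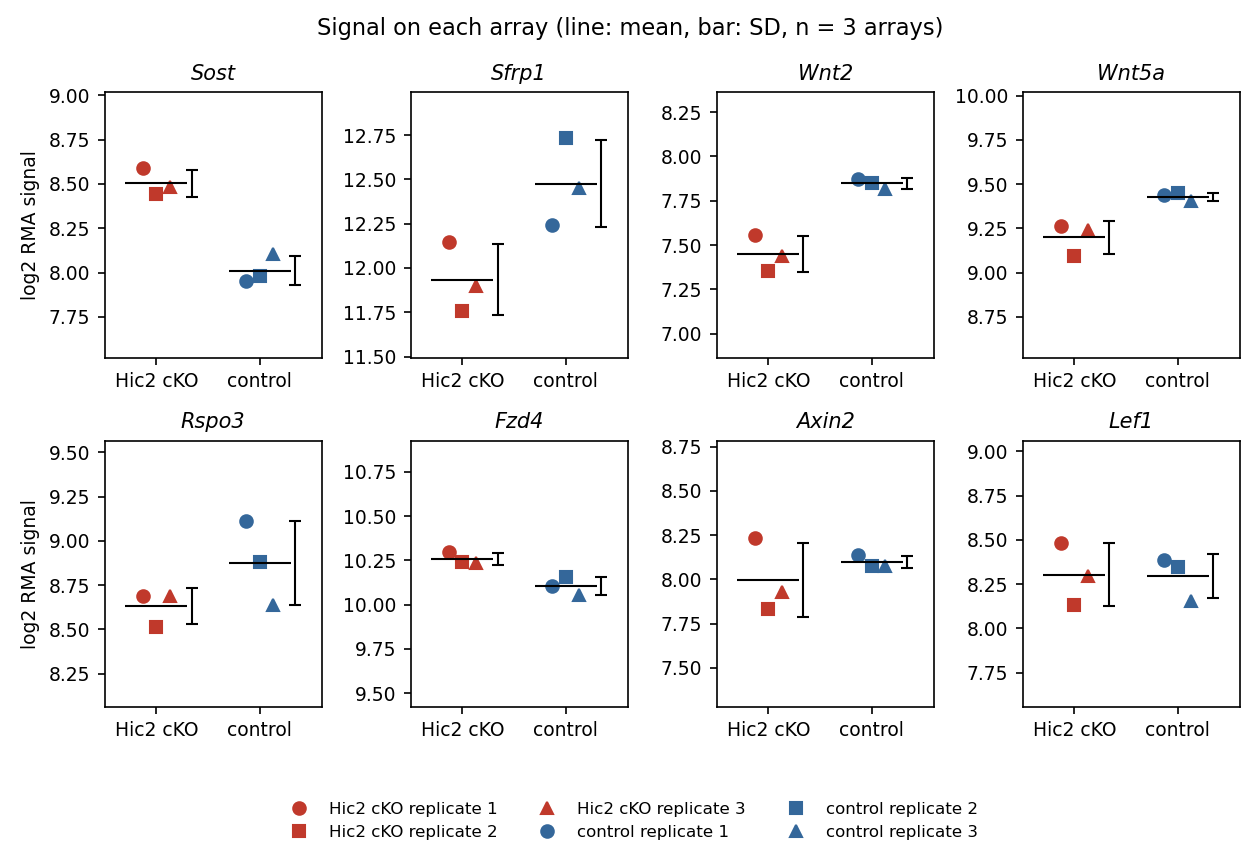
Log2 signal (y axis, each panel spanning 1.5 log2 units) of 8 members on each array, Hic2 cKO left of control; lines are group means and bars SDs over 3 arrays. The groups are apart for Sost, Sfrp1, Wnt2, Wnt5a and Fzd4 and overlap for Rspo3, Axin2 and Lef1; Hic2 cKO replicate 1 is the highest array for Axin2 and Lef1.

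Of the 19 Wnt ligands, 0 passed the threshold in limma, and 2 had an unadjusted p under 0.05, Wnt2 and Wnt5a, both with negative differences. Wnt2 is needed in mouse for growth of the inflow part of the heart. Its row (identifier 6951974) had signals of 7.56, 7.35 and 7.44 in Hic2 cKO hearts, against 7.87, 7.85 and 7.82 in control hearts. These signals lay near the array medians over all rows, 7.41 to 7.48, and below those over the named genes, 8.25 to 8.36. No detection call was used. The control arrays lay within 0.06 of each other (SD 0.03) and all above the Hic2 cKO arrays (SD 0.10). The difference was -0.40 ± 0.07 (SE; 95% confidence interval -0.56 to -0.24), or -24.1%, and the limma adjusted p of 0.0627 missed the threshold. It passed with the array medians set equal (0.0470), quantile normalisation (0.0452), trended and robust variance (0.0438) and array weights (0.0112), and lay between 0.0687 and 0.191 with 1 array left out. Sost and Wnt2 thus lay on either side of the threshold and changed places under median centring.

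**Figure D4:**
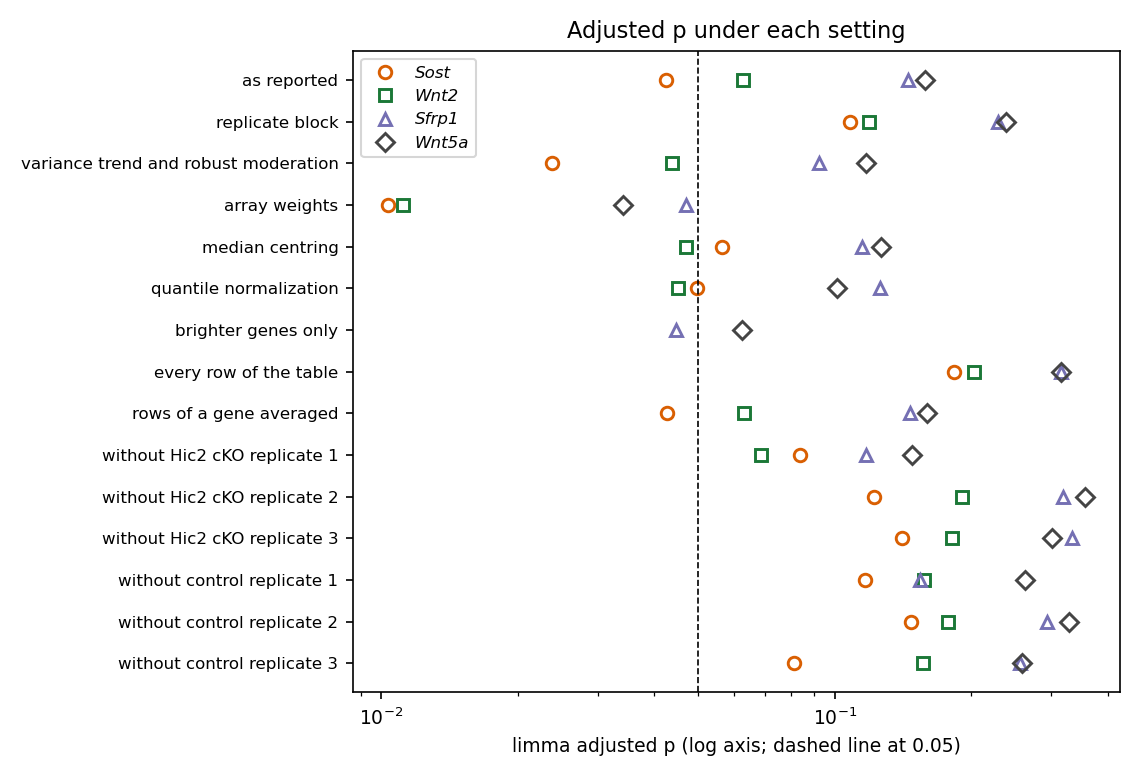
Limma adjusted p (log axis) of Sost, Wnt2, Sfrp1 and Wnt5a under the setting reported and each alternative; the dashed line is 0.05. Sost and Wnt2 lie close to the line in most settings with all 6 arrays, and all 4 genes lie to its right whenever 1 array is left out; Sost and Wnt2 are too dim for the setting with brighter genes only.

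Wnt5a, the non-canonical ligand required in mouse for septation of the outflow tract, showed the same arrangement on a smaller scale. Its signals were 9.26, 9.09 and 9.24 in Hic2 cKO hearts, against 9.44, 9.45 and 9.40 in control hearts. The control SD was 0.02 and the groups were apart, with a difference of -0.23 ± 0.07 (SE, limma adjusted p = 0.158). Wnt11, a non-canonical ligand of the outflow tract, had signals of 8.97, 8.81 and 8.96 in Hic2 cKO hearts, against 8.89, 8.75 and 8.86 in control hearts. These overlapped, the difference was 0.08 (95% confidence interval -0.08 to 0.25), and it was -0.0041 with array weights. Wnt2b, the closest relative of Wnt2, had signals of 8.76, 8.57 and 8.33 in Hic2 cKO hearts, against 8.51, 8.52 and 8.41 in control hearts. The Hic2 cKO arrays lay on both sides of the controls, and the difference was 0.07 (95% confidence interval -0.18 to 0.32).

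Canonical ligands of other tissues were in the same range of differences. Wnt3a, which acts in the tail bud and somites, had signals of 6.83, 6.98 and 7.01 in Hic2 cKO hearts, against 7.08, 7.01 and 7.24 in control hearts. Wnt8b, a ligand of the forebrain, had signals of 5.86, 6.01 and 5.91 in Hic2 cKO hearts, against 6.08, 6.00 and 6.10 in control hearts. The groups met or overlapped in both genes, with differences of -0.17 ± 0.08 and -0.13 ± 0.06 (SE) and limma adjusted p of 0.337 and 0.345. Without control replicate 3 the Wnt3a difference was -0.10 (adjusted p = 0.556). No detection call was used, so signals of this size, here or in other members, cannot be separated from background. The other 13 ligands differed by between -0.07 (Wnt8a) and 0.11 (Wnt7a), the smallest limma adjusted p being 0.520. Of the 19 ligands, 9 differences were positive and 10 negative, with a median of -0.0013.

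Of the 11 receptors, 0 passed in limma and 1, Fzd4, had an unadjusted p under 0.05. Fzd4, a receptor of vascular endothelium that also binds the non-Wnt ligand norrin, had signals of 10.29, 10.24 and 10.24 in Hic2 cKO hearts, against 10.11, 10.15 and 10.05 in control hearts. The groups did not overlap, and the difference was 0.15 ± 0.06 (SE; 95% confidence interval 0.02 to 0.29, limma adjusted p = 0.236), which is within a 1.3-fold change. Of 10 endothelial and endocardial markers, 6 had positive and 4 negative differences, with a median of 0.01, and 0 passed. The log2 of their summed signal was 14.63 to 14.72 in Hic2 cKO hearts and 14.55 to 14.61 in control hearts. That sum is weighted to its brightest marker, Emcn, which also had the largest difference, at 0.35. Differences of Kdr, Npr3, Tek and Plvap were negative, from -0.13 to -0.03. The part of these cells in the Fzd4 value was not tested.

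Fzd8 had signals of 9.48, 9.31 and 9.37 in Hic2 cKO hearts, against 9.48, 9.70 and 9.52 in control hearts. The difference was -0.18 ± 0.08 (SE, limma adjusted p = 0.291), and Hic2 cKO replicate 1 all but met control replicate 1. Fzd2 had signals of 9.73, 9.75 and 9.90 in Hic2 cKO hearts, against 9.96, 9.90 and 9.89 in control hearts, with a difference of -0.13 ± 0.07 (SE, limma adjusted p = 0.364). These Frizzleds thus differed in the direction opposite to Fzd4, by amounts of the same order, and none passed. The co-receptor Lrp5 had signals of 10.02, 9.85 and 9.73 in Hic2 cKO hearts, against 9.71, 9.74 and 9.80 in control hearts. Lrp6 had signals of 10.11, 10.01 and 9.85 in Hic2 cKO hearts, against 9.99, 10.07 and 10.01 in control hearts. Both overlapped between groups, with differences of 0.12 and -0.03 and intervals within a 1.3-fold change, and without Hic2 cKO replicate 1 the Lrp5 difference was 0.04. The other Frizzleds differed by between -0.05 (Fzd5) and 0.16 (Fzd7), and the median over the 11 receptors was -0.0056.

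Neither of the pathway's transcriptional readouts passed the test. Axin2, a feedback inhibitor induced by beta-catenin in many tissues, had signals of 8.23, 7.83 and 7.93 in Hic2 cKO hearts, against 8.14, 8.08 and 8.08 in control hearts. The control arrays were close together (SD 0.03), while Hic2 cKO replicate 1 lay above all of them and the other two Hic2 cKO arrays below all of them (SD 0.21). The difference was -0.10 ± 0.10 (SE; 95% confidence interval -0.34 to 0.14, limma adjusted p = 0.668). Without Hic2 cKO replicate 1 it was -0.22, with an adjusted p of 0.170. Lef1, a nuclear partner of beta-catenin, had signals of 8.48, 8.13 and 8.29 in Hic2 cKO hearts, against 8.39, 8.35 and 8.16 in control hearts. Its difference was 0.0068 (95% confidence interval -0.24 to 0.25, limma adjusted p = 0.983). It was -0.08 without Hic2 cKO replicate 1 and -0.06 without control replicate 3. The direction for Lef1 also turned under median centring and quantile normalisation.

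Hic2 cKO replicate 1 was the highest array of its group for 23 of the 46 members, and for 38.9% of all genes. For Fzd7 it stood at 9.63 beside 9.21 and 9.15, and without it the Fzd7 difference was 0.01 in place of 0.16. For Fzd1 it stood at 9.87 beside 9.61 and 9.56, and without it the difference was -0.05 in place of 0.05. Array weights gave Rspo3 a difference of -0.42 and Axin2 one of -0.23, and neither passed.

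Other genes of the pathway were taken as 7 lists. Of the 94 genes measured in them, 0 passed in limma, and 9 had an unadjusted p under 0.05, 1 with a positive and 8 with a negative difference, against 17.5% of all genes (10.7% higher and 6.8% lower). Negative differences numbered 65 of 94 (7187 of 14860 for all genes), with a median of -0.04 beside 0.0050 for all genes, and all 94 intervals lay within a 1.5-fold change. The groups did not overlap in 19 of the 94, 18 of them with Hic2 cKO hearts below. That is 20.2% of the lists, against 24.6% of all genes (14.2% above and 10.4% below). Of the 15 genes for beta-catenin and its nuclear partners, 5 had positive and 10 negative differences. Tcf7l1, a Tcf factor that mostly represses, had the smallest adjusted p of the 7 lists at 0.0698, with 9.80 ± 0.02 in Hic2 cKO hearts and 9.49 ± 0.05 in control hearts (SD, n = 3), a difference of 0.31. Beta-catenin itself, Ctnnb1, was at 12.79 in Hic2 cKO hearts and 12.95 in control hearts, a difference of -0.16 ± 0.07 (SE, limma adjusted p = 0.276). The corepressor Tle1 differed by -0.18.

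In the list of 20 destruction complex and Dishevelled genes, Dvl3, which relays the Frizzled signal, differed by -0.22, Nkd2 by -0.16 and the kinase gene Gsk3b by -0.11. Of 17 planar polarity and non-canonical genes 13 had negative differences, among them the membrane proteins Vangl2 (-0.29 ± 0.11, SE) and Vangl1 (-0.16 ± 0.06), and the factor Nfatc3 (-0.14 ± 0.07). Among 20 further target genes of the canonical branch, the receptor Tnfrsf19 differed by -0.29 ± 0.07 (SE, limma adjusted p = 0.127), Tbx3 by -0.19 and Tbx20 by -0.11. Of 10 other modulators of the pathway, Dact2 differed by -0.23, Shisa2 by -0.21 and Tmem88 by 0.26. The 11 other co-receptors and receptor regulators differed by at most 0.10 in size, with Ror1 at -0.10, Rnf43 at -0.07 and Ror2 at -0.06. Among 7 genes for Wnt modification, release and binding at the cell surface, Sdc1 differed by -0.17, Gpc6 by -0.15 and the Wnt carrier gene Wls by 0.08.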

How the data were processed

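RNA from pooled E13.5 hearts (3 Hic2 cKO, 3 control) was hybridised to 6 arrays. The deposited values are log2 signals that the authors made with RMA in Expression Console (the submitters' processing notes name both, without versions). RMA equalises the arrays' distributions, which hides a shift common to all genes, and compresses differences of dim probe sets. Of 23332 rows, 14996 had 1 gene symbol, 1019 several and 7317 were unnamed here; the brightest row per gene was kept (14860 genes, no filter), and no member had a second row. Groups were compared with limma 3.58.1 (R 4.3.3; lmFit, eBayes), Hic2 cKO minus control, two-sided, adjusted over all genes; the fit was tested on simulated data. Members called, the 4 with the smallest p and the 3 with the highest mean per class are given array by array; of 7 other pathway lists, members past the threshold are named, otherwise the 3 with the smallest p. Eif2s3y and single cell type markers such as Epcam were named after their values were seen. Members and lists were chosen with earlier results of these data known and are described by counts and medians. Alternatives were a replicate block, trended robust variance, array weights, median centring, quantile normalisation, brighter genes only (mean above the median), every row, averaged rows, and leaving out each array. Replicate numbers did not pair the arrays (r of deviations -0.04, 0.02 and 0.13). The number of arrays limits the precision.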

Additional observations from a re-analysis of the deposited data

How the results depend on the processing

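The count of 83 genes called by limma was 38 with a replicate block, 203 with trended robust variance, 733 with array weights, 443 among brighter genes, 0 with every row tested (2935 rows at an unadjusted p under 0.05), and 3 to 28 with 1 array left out, fewest without control replicate 2. The 1 member called became 0 with the replicate block, 2 with trended robust variance (Sost and Wnt2), 4 with array weights (Sost, and Wnt2, Wnt5a and Sfrp1 lower), 2 with quantile normalisation (Sost and Wnt2), 0 with every row tested, and 0 in all 6 refits without 1 array. With median centring the 1 member was Wnt2 and with brighter genes only it was Sfrp1, Sost not being tested there. The cause of these shifts was not tested. The median of the modulators moved to -0.18 among brighter genes, where fewer members were tested; the other class medians moved by less than the SD between arrays. Median centring shifted the median of all genes to -0.02. Among the members given array by array, directions turned for Lef1, Wnt11, Dkk3, Wnt2b and Lrp6. Lef1 was at -0.15 with array weights, -0.0141 with median centring, -0.0173 with quantile normalisation and -0.0836 to 0.0929 without 1 array. Wnt11 was at -0.0041 with array weights. With 1 array left out, Dkk3 ranged from -0.13 to 0.12, Wnt2b from -0.0278 to 0.18 and Lrp6 from -0.0928 to 0.0382. Members outside that set also turned, such as Fzd1 and Frzb with 1 array left out and Sfrp4 with array weights. Sost, Wnt2, Wnt5a and Sfrp1 kept their direction under every setting run on them. The replicate block, with numbers that did not pair the arrays, changed no call of a member but that of Sost (limma adjusted p = 0.108).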
